A study of Homo sapiens with 24 samples.

Results

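The IFIT family comprises the interferon-induced proteins with tetratricopeptide repeats, and 4 human members were followed here, IFIT1, IFIT2, IFIT3 and IFIT5. They were taken as every probe of the bead array whose annotated gene symbol is 1 of these 4 names. This gave 7 probes of 4 genes, out of 30112 probes with 1 symbol and 20046 genes. IFIT3 had 3 probes (ILMN_2239754, ILMN_1701789 and ILMN_1664543), IFIT1 had 2 (ILMN_1707695 and ILMN_1699331), and IFIT2 (ILMN_1739428) and IFIT5 (ILMN_1696654) had 1 each.

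RNA was measured in 4 established human lines of triple-negative breast cancer, BT549, HCC38, MDA-MB-157 and MDA-MB-231, each at 0, 24 and 72 h of cisplatin at 2 µM. Cisplatin is a platinum drug that crosslinks DNA. The labels name no genotype, vehicle or other agent, so each line's own 0 h arrays are the reference for its 24 h and 72 h arrays. The 12 line-by-time groups held 2 arrays each, which the series' design text calls independent, and the number of arrays limits the precision. Levels are normalised log2 intensities. A difference was called where limma's adjusted p, by Benjamini-Hochberg over all 20466 probes tested, was under 0.05.

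Cells make IFIT proteins after type I or type III interferon binds its receptor, when kinases of the JAK family activate a transcription factor complex that includes IRF9. The complex binds interferon-stimulated response elements in the promoters, and IRF3 can switch on some of the same genes without interferon once RNA or DNA is sensed in the cytoplasm. IFIT1 binds viral mRNA caps that lack ribose methylation and blocks their translation, IFIT3 binds and stabilises IFIT1, IFIT2 joins them in a complex and can promote apoptosis, and IFIT5 binds uncapped RNA ends. The genes lie side by side on human chromosome 10, in the order IFIT2, IFIT3, IFIT1, IFIT5 of the RefSeq gene table, with the pseudogene IFIT6P and the protein-coding gene IFIT1B between IFIT3 and IFIT1.

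RefSeq promoter windows on GRCh38.p14 were available for IFIT1, for IFIT3 (2 start sites) and for IFIT5, all on the + strand. They are shown because IFIT1 and IFIT3 RNA rose in BT549 at 72 h, where IFIT5 was not called. The last 160 bases before each start site are printed, with the core of the interferon-stimulated response element in capitals. The core was searched on both strands as a pair of GAAA set 2 bases apart, and every copy found lay on the minus strand, so that it reads as a pair of TTTC below. The windows are chr10:89392463-89392622 for IFIT1, chr10:89327837-89327996 and chr10:89332369-89332528 for IFIT3, and chr10:89414408-89414567 for IFIT5.
IFIT1: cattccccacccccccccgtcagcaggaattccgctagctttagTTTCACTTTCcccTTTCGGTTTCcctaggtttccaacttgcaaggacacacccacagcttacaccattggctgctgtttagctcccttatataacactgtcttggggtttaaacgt
IFIT3, upstream window: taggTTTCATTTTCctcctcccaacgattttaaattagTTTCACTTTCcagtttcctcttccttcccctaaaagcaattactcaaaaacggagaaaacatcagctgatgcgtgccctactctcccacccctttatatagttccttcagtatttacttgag
IFIT3, downstream window: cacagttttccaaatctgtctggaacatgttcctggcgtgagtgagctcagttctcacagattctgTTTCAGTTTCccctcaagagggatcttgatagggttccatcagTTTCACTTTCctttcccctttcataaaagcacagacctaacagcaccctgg
IFIT5: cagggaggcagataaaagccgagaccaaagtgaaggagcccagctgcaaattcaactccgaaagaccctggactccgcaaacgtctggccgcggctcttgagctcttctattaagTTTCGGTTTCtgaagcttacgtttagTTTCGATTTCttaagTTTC
IFIT1 had copies at -116 to -107 and at -103 to -94 from the start site. The upstream IFIT3 window had copies at -156 to -147 and at -122 to -113, and the downstream window at -94 to -85 and at -51 to -42. IFIT5 had copies at -45 to -36, at -19 to -10 and at -4 to 5, the last of which crosses the start site, so that only its first letters are printed. Of 35114 RefSeq windows of 300 bases, 1255 (3.57%) held at least 1 copy. The longer motif, the same pair followed directly by CT, was in 96 windows (0.273%), and in each of the 4 IFIT windows. A match of letters is a description and not a bound site.

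The probes differed in brightness, so levels were not compared between genes. ILMN_1707695 (IFIT1), ILMN_1739428 (IFIT2), ILMN_2239754 and ILMN_1701789 (both IFIT3) were detected on 24 of 24 arrays, with a detection p under 0.05. ILMN_1664543 (IFIT3) was detected on 23 arrays, ILMN_1696654 (IFIT5) on 20 and ILMN_1699331 (IFIT1) on 12. All 7 probes passed the filter of detection on at least 2 arrays. The dim IFIT1 probe spanned only 4.45 to 5.69 over the arrays, against 6.56 to 10.49 for the bright one.

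**Figure D1:**
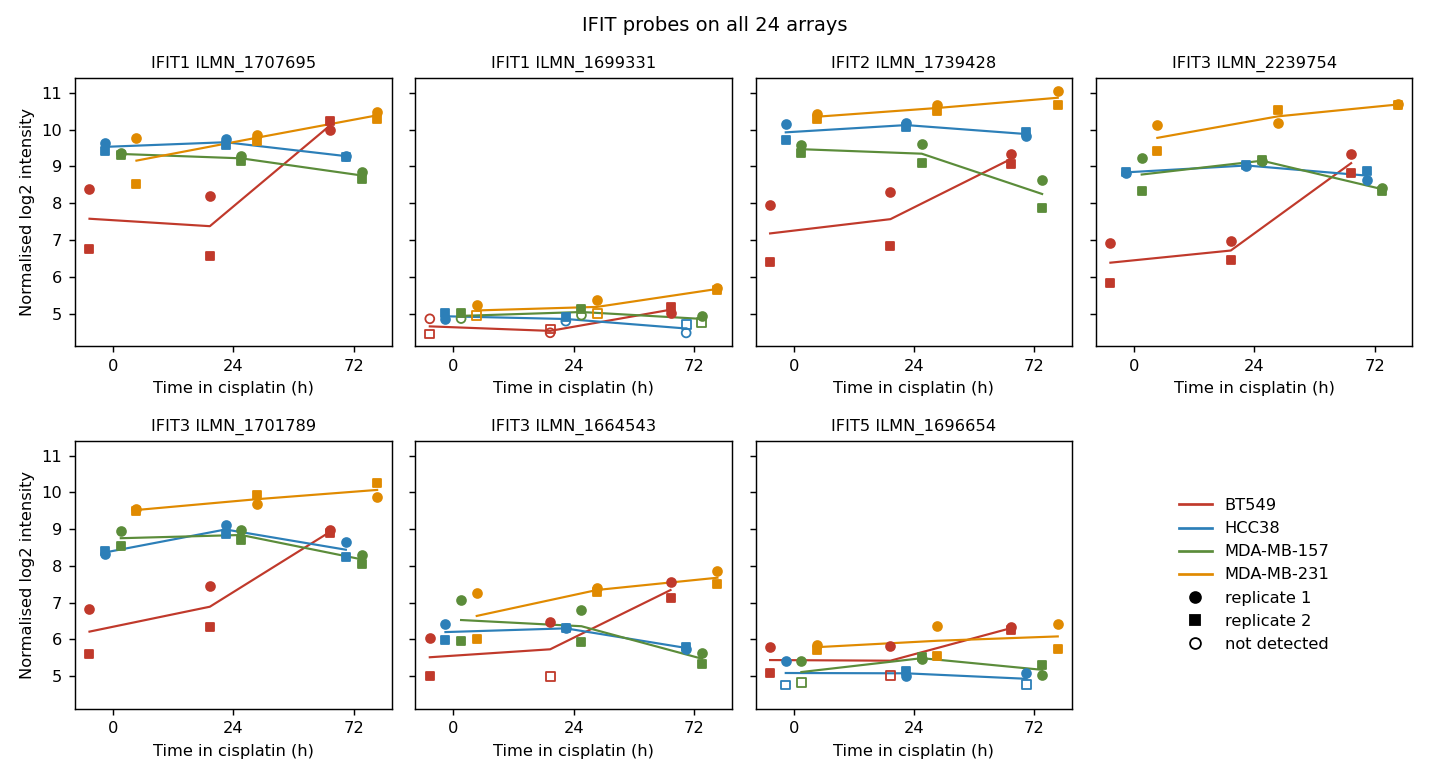
Normalised log2 intensity of each IFIT probe (y axis) at 0, 24 and 72 h of cisplatin (x axis), with circles for replicate 1, squares for replicate 2, open symbols for arrays where the probe was not detected, and lines through the means of 2 arrays. BT549 lies lowest at 0 h for IFIT1 (ILMN_1707695), IFIT2 and IFIT3, and at 72 h its IFIT1 level of 10.12 is above those of HCC38 and MDA-MB-157.

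Before the drug, BT549 had the lowest IFIT1, IFIT2 and IFIT3 RNA of the 4 lines, and MDA-MB-231 had the highest mean IFIT2 and IFIT3 RNA. The lines differed at 0 h by limma's F test for 4 of 7 probes, where 63.8% of all probes passed the same test, so the share of IFIT probes was near that of the array as a whole. IFIT3 (ILMN_2239754) averaged 9.78 ± 0.50 in MDA-MB-231, 8.84 ± 0.03 in HCC38, 8.78 ± 0.62 in MDA-MB-157 and 6.38 ± 0.77 in BT549 at 0 h (SD, n = 2 each), with F = 41.4 and an adjusted p of 1.29e-07. IFIT2 averaged 10.35 ± 0.10 in MDA-MB-231, 9.93 ± 0.30 in HCC38, 9.47 ± 0.15 in MDA-MB-157 and 7.18 ± 1.09 in BT549, with F = 23.3 and an adjusted p of 6.39e-06. IFIT1 (ILMN_1707695) averaged 9.53 ± 0.14 in HCC38, 9.34 ± 0.03 in MDA-MB-157, 9.16 ± 0.88 in MDA-MB-231 and 7.58 ± 1.15 in BT549, with F = 7.88 and an adjusted p of 0.00274. That IFIT1 call rested on BT549 replicate 2, without which the adjusted p was 0.179. IFIT5 lay between 5.09 and 5.79 in the line means and was not called (adjusted p = 0.184).

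The order of the levels was resolved mainly at its lower end. In all 3 of its pairs, BT549 was below the other line at 0 h for IFIT1 (ILMN_1707695), for IFIT2 and for IFIT3 (ILMN_2239754 and ILMN_1701789), with adjusted p-values up to 0.0102. In these pairs 38.6% (HCC38), 38.5% (MDA-MB-157) and 32.2% (MDA-MB-231) of all probes were called. Against the mean of the other lines, BT549 was lower by -2.75 ± 0.26 (SE) for IFIT3 (adjusted p = 6.27e-08), by -2.74 ± 0.34 for IFIT2 (adjusted p = 2.25e-06) and by -1.77 ± 0.37 for IFIT1 (adjusted p = 7.19e-04). The IFIT1 call was lost without replicate 2 of BT549 at 0 h (-0.949, adjusted p = 0.0962) and under median scaling (-1.08, adjusted p = 0.101). In the same comparison 38.6% of all probes were called. HCC38 was below MDA-MB-231 for IFIT3 by -0.94 (adjusted p = 0.0252), and MDA-MB-157 was below MDA-MB-231 by -0.998 (adjusted p = 0.0188), where 37.2% and 35.4% of all probes were called. The second IFIT3 probe, ILMN_1701789, called the pair of HCC38 and MDA-MB-231 (adjusted p = 0.00887) and not the pair of MDA-MB-157 and MDA-MB-231 (adjusted p = 0.0792). Neighbouring lines above BT549 were not called apart for IFIT1 or IFIT2, with differences of 0.18 and 0.19 for IFIT1 and of -0.43 and 0.46 for IFIT2.

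The time course set each line in cisplatin against its own 0 h arrays. The labels name no arrays kept for 24 h or 72 h without the drug. Effects of cisplatin and of time in culture therefore cannot be told apart. In BT549, IFIT1, IFIT2 and IFIT3 RNA rose at 72 h of cisplatin, by 4.06-fold to 6.57-fold on the 4 probes called. The BT549 means at 72 h were 10.12 for IFIT1 and 9.09 for IFIT3 (ILMN_2239754), beside 9.28 and 8.75 in HCC38 at that time, a difference that was not tested. Of all probes, 0.782% were called in this comparison, and 0.43% were called higher. At 24 h 0 of 7 probes were called in BT549, where 0.0195% of all probes were, and 0 of 7 had an unadjusted p under 0.05, where 5.48% of all probes had. In a culture, more cells with IFIT RNA and more IFIT RNA per cell cannot be told apart.

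IFIT3, the partner that stabilises IFIT1, showed the firmest rise. Its probe ILMN_2239754 read 6.92 and 5.84 at 0 h in BT549, 6.98 and 6.45 at 24 h, and 9.35 and 8.83 at 72 h. Both 72 h arrays were above all 4 earlier ones, and the 0 h and 24 h arrays overlapped. The change at 72 h against 0 h was 2.71 ± 0.32 on the log2 scale (SE, 6.53-fold, adjusted p = 2.49e-04). Probe ILMN_1701789 read 6.82 and 5.60 at 0 h, 7.44 and 6.34 at 24 h, and 8.97 and 8.88 at 72 h, and changed by 2.72 ± 0.33 (6.57-fold, adjusted p = 2.77e-04). These 2 IFIT3 probes correlated at 0.97 over the 24 arrays, which share their normalization. The dimmer ILMN_1664543 read 7.56 and 7.13 at 72 h, against 6.03 and 4.999 at 0 h. Its change of 1.83 ± 0.46 was not called (adjusted p = 0.0698).

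IFIT1 followed, with a wider spread before 72 h. Its bright probe read 8.39 and 6.76 at 0 h in BT549, 8.19 and 6.56 at 24 h, and 10.004 and 10.23 at 72 h. The arrays at 72 h were close to each other and above the other 4, which were split by replicate rather than by time. The change at 72 h against 0 h was 2.54 ± 0.45 (5.82-fold, adjusted p = 0.0096). Without replicate 2 of the 0 h arrays it was 1.73 (adjusted p = 0.187), and without replicate 2 at 72 h it was 2.42 (adjusted p = 0.103). The dim IFIT1 probe, ILMN_1699331, read 5.02 and 5.18 at 72 h, detected both times, and was detected on 0 of 2 arrays at 0 h, which gives a change of at least 1.13-fold that was not called (adjusted p = 0.325).

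IFIT2 RNA read 7.95 and 6.41 at 0 h in BT549, 8.31 and 6.82 at 24 h, and 9.34 and 9.06 at 72 h. It rose by 2.02 ± 0.41 (4.06-fold, adjusted p = 0.0232), and the 72 h arrays did not overlap the earlier ones. The call was lost without replicate 2 at 0 h (1.25, adjusted p = 0.336), without replicate 1 at 72 h (1.88, adjusted p = 0.0781) and without replicate 2 at 72 h (2.16, adjusted p = 0.106). It was also lost under median scaling (1.42, adjusted p = 0.19) and 75th percentile scaling (2.01, adjusted p = 0.0622), without the filter on dim probes (2.02, adjusted p = 0.0599), on the authors' processed values (1.36, adjusted p = 0.0599) and with the 6 BT549 arrays alone (2.11, adjusted p = 0.405). IFIT5, the member that binds uncapped RNA ends, read 6.35 and 6.26 at 72 h, against 5.80 and 5.08 at 0 h. Its change of 0.87 ± 0.32 was not called (adjusted p = 0.264). In BT549 all 7 probes had, after normalization, 72 h arrays above the 0 h arrays with no overlap, a pattern that 19.4% of all probes showed.

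The 72 h arrays of BT549 were also set against those at 24 h. Here, 3 of 7 probes were called higher at 72 h in BT549, where 0.161% of all probes were called: IFIT1 (ILMN_1707695) by 2.74 ± 0.45 (adjusted p = 0.0107), and IFIT3 by 2.38 ± 0.32 (ILMN_2239754, adjusted p = 0.00285) and by 2.04 ± 0.33 (ILMN_1701789, adjusted p = 0.0104). IFIT2 changed by 1.63 ± 0.41 and was not called (adjusted p = 0.195). Without replicate 2 of the 24 h arrays 0 probes were called in this comparison, with IFIT3 (ILMN_2239754) at 2.11 (adjusted p = 0.0672), and without replicate 2 at 72 h only that IFIT3 probe was. The changes at 24 h against 0 h in BT549 ran from -0.20 to 0.68 over the 7 probes, with a median of 0.22.

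**Figure D2:**
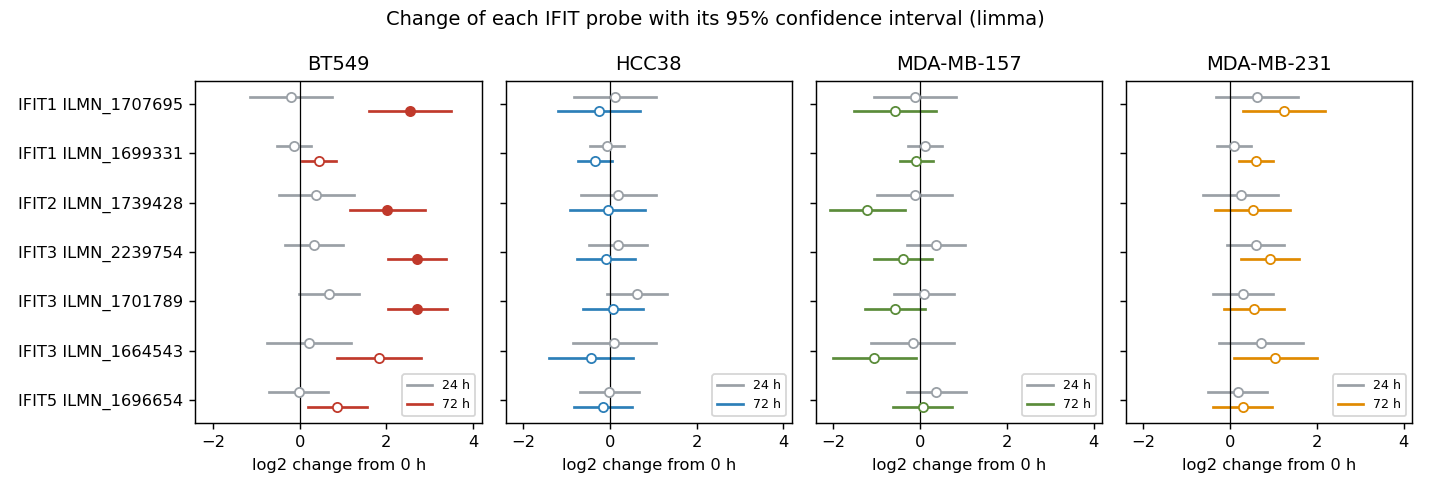
Change of each IFIT probe from 0 h (x axis, log2) in each line at 24 h (upper, grey) and 72 h (lower, coloured), as points with 95% confidence intervals from limma, filled where called. Of the 56 differences drawn, the 4 filled points are BT549 at 72 h, at 2.02 to 2.72.

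MDA-MB-231 had the highest mean IFIT2 and IFIT3 levels at 0 h, but not the highest IFIT1 (ILMN_1707695) level. In this line all 7 probes were higher at 72 h in the means, and 0 were called. IFIT1 (ILMN_1707695) read 9.78 and 8.53 at 0 h, 9.86 and 9.70 at 24 h, and 10.49 and 10.29 at 72 h. The 72 h arrays lay above the others, and 1 array at 0 h stood apart below. The change at 72 h was 1.23 ± 0.45 (adjusted p = 0.422), and without replicate 1 at 0 h it was 1.86 (adjusted p = 0.0427). IFIT3 (ILMN_2239754) read 10.13 and 9.43 at 0 h, 10.19 and 10.53 at 24 h, and 10.69 and 10.68 at 72 h, a change of 0.91 ± 0.32 (adjusted p = 0.406). IFIT2 read 10.42 and 10.28 at 0 h, 10.66 and 10.52 at 24 h, and 11.06 and 10.67 at 72 h, the highest IFIT2 values of the series. The groups at 72 h and 0 h did not overlap for 6 of 7 probes, which held for 18.9% of all probes in the higher direction. An unadjusted p under 0.05 was found for 4 of 7 probes, and for 9.26% of all probes, while 0.00977% of all probes were called.

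In MDA-MB-157 the values at 72 h were lower for 6 of 7 probes in the means, and 0 were called, where 0.0733% of all probes were. IFIT2 read 9.58 and 9.36 at 0 h, 9.60 and 9.09 at 24 h, and 8.62 and 7.88 at 72 h. Both 72 h arrays were below the earlier ones, and the change of -1.22 ± 0.41 was not called (adjusted p = 0.472). IFIT1 (ILMN_1707695) read 9.36 and 9.32 at 0 h, 9.28 and 9.16 at 24 h, and 8.85 and 8.66 at 72 h, with a change of -0.58 ± 0.45 (adjusted p = 0.947). IFIT3 (ILMN_2239754) read 9.22 and 8.34 at 0 h, 9.14 and 9.17 at 24 h, and 8.42 and 8.34 at 72 h, with a change of -0.40 ± 0.32 (adjusted p = 0.956). The 72 h arrays overlapped the 0 h arrays for that IFIT3 probe and not for IFIT1, and 4 of 7 probes were below 0 h without overlap, against 19.2% of all probes in that direction.

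HCC38 was the flattest of the lines at 72 h, with a median change of -0.16 over the 7 probes. Its largest change at 24 h was 0.62, for IFIT3 (ILMN_1701789). That probe read 8.32 and 8.41 at 0 h, and 9.12 and 8.87 at 24 h, and was not called. IFIT2 read 10.14 and 9.71 at 0 h, 10.17 and 10.08 at 24 h, and 9.84 and 9.92 at 72 h. IFIT1 (ILMN_1707695) read 9.63 and 9.43 at 0 h, 9.74 and 9.57 at 24 h, and 9.29 and 9.27 at 72 h, and IFIT3 (ILMN_2239754) read 8.82 and 8.86, then 9.02 and 9.03, then 8.62 and 8.88 at the same times. The changes at 72 h over the 7 probes ran from -0.43 to 0.07, and 0 were called, where 0.0342% of all probes were. The 95% intervals were wide: that of IFIT1 ran from -1.20 to 0.69. At 24 h 0 of 7 probes were called in HCC38, MDA-MB-157 or MDA-MB-231, where 0% of all probes were. An unadjusted p under 0.05 was found for 0 of 7 probes in each of the 3, and for 4.18%, 4.33% and 8.31% of all probes in that order. Between 24 h and 72 h likewise 0 of 7 probes were called in these lines, where 0.0244%, 0.122% and 0% of all probes were.

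The difference between lines was itself tested. limma's F test of whether the change at 72 h differs between the 4 lines called both bright IFIT3 probes, with F = 19.32 (ILMN_2239754, adjusted p = 0.0144) and F = 18.75 (ILMN_1701789, adjusted p = 0.0156), where 12 probes of the array (0.0586%) were called. IFIT1 (ILMN_1707695, adjusted p = 0.132) and IFIT2 (adjusted p = 0.123) were not. The IFIT3 change in BT549 exceeded the mean change of the other lines by 2.57 ± 0.37 (adjusted p = 0.00278) and 2.70 ± 0.38 (adjusted p = 0.00251), where 0.156% of all probes were called. Without replicate 2 of the BT549 0 h arrays these excesses were 2.02 (adjusted p = 0.073) and 2.08 (adjusted p = 0.0681). The F test of ILMN_2239754 lost its call without that array (adjusted p = 0.133), without BT549 replicate 1 (0.0797) or replicate 2 (0.0764) at 72 h, and without MDA-MB-157 replicate 2 at 72 h (0.0617). ILMN_1701789 lost it without the same arrays and without MDA-MB-157 replicate 1 at 0 h (0.065). For the change at 24 h the F test called 0 IFIT probes and 0% of all probes, with 845 probes (4.13%) at an unadjusted p under 0.05.

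Averaged over the 4 lines, only IFIT3 ILMN_2239754 was called at 72 h, with a mean of 9.23 at 72 h, against 8.44 at 0 h. The change was 0.78 ± 0.16 (adjusted p = 0.028), and 0.855% of all probes were called. Without BT549 the average was 0.14 (adjusted p = 0.788). The call was also lost, at 0.64 to 0.79 and an adjusted p up to 0.0838, without replicate 2 of BT549, HCC38, MDA-MB-157 or MDA-MB-231 at 0 h, without replicate 2 of HCC38, MDA-MB-157 or MDA-MB-231 at 72 h, and without replicate 1 of MDA-MB-231 at 72 h. ILMN_1701789 changed by 0.69 ± 0.16 (adjusted p = 0.051), IFIT1 (ILMN_1707695) by 0.73 ± 0.23 (adjusted p = 0.126) and IFIT2 by 0.32 ± 0.21 (adjusted p = 0.522). The average change at 24 h called 0 IFIT probes, where 0.00977% of all probes were called, and the average change between 24 h and 72 h likewise called 0, where 0.0684% were.

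Replicates of a group spread more than those of most probes for 6 of the 7 IFIT probes. The residual SD was 0.545 for IFIT1 (ILMN_1707695), 0.496 for IFIT2 and 0.363 for IFIT3 (ILMN_2239754), at the 98.9, 98.3 and 91.1 percentiles of all tested probes, whose median was 0.234. The exception was the dim IFIT1 probe ILMN_1699331, at 0.159 (percentile 13.5). Replicate 1 was the higher in 11 of 12 groups for IFIT1 (ILMN_1707695), IFIT2 and IFIT3 (ILMN_1664543), in 7 for IFIT3 (ILMN_2239754) and in 5 for ILMN_1699331. In BT549 at 0 h all 7 probes were higher in replicate 1, with a median gap of 1.08, while 48.8% of all probes were. At 24 h in BT549 the median gap was 1.10, and at 72 h it was 0.09. The array positions in the headers begin with 1 of 2 numbers, which are called slide 1 and slide 2 here. No label names a slide, so this grouping is inferred. Replicate 1 lay on slide 2 at 0 h and on slide 1 at 24 h in BT549. The part of the slides in the replicate gaps was not tested.

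**Figure D3:**
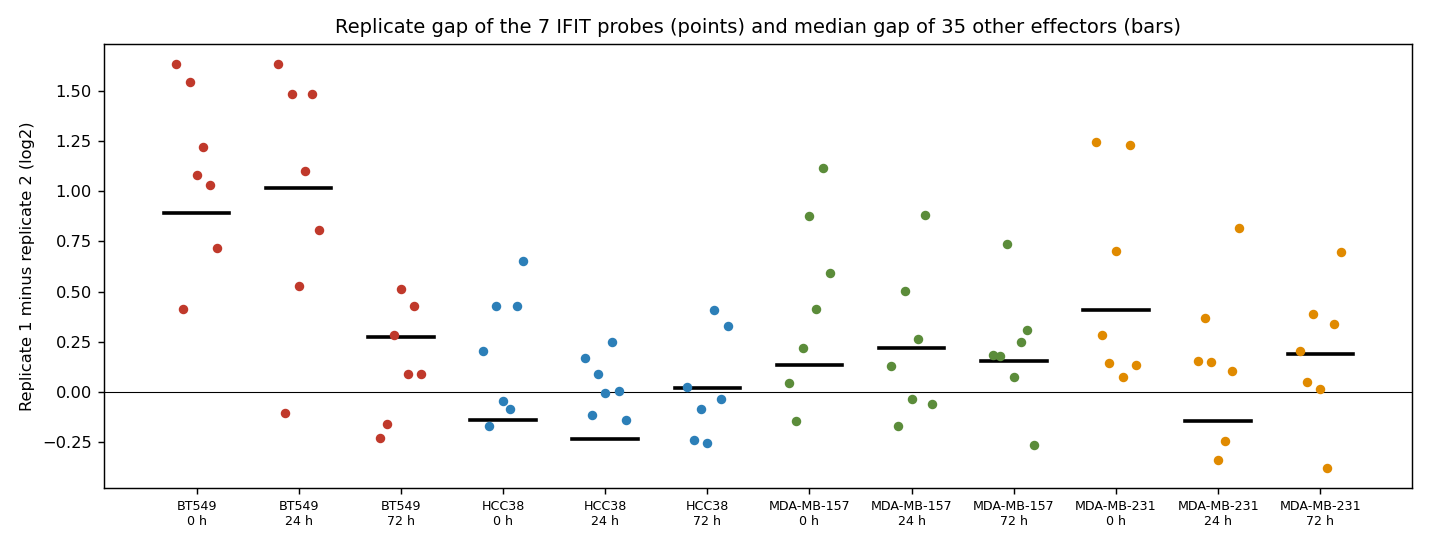
Replicate 1 minus replicate 2 (y axis, log2) in each line and time (x axis), as points for the 7 IFIT probes and a black bar for the median of 35 other interferon-stimulated effector genes. In BT549 the IFIT medians are 1.08 at 0 h and 1.10 at 24 h, and 0.09 at 72 h, and the effector medians are 0.89, 1.01 and 0.27.

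Each slide held 1 array of every group. After normalization, the 72 h arrays of BT549 lay above the 0 h arrays for all 7 probes. A difference within a slide could therefore only be positive, so it gives a size and is no check on the slides. Slide 1 paired replicate 2 at 0 h with replicate 1 at 72 h, and slide 2 paired the others. For IFIT3 (ILMN_2239754) the difference at 72 h against 0 h was 3.51 on slide 1 and 1.91 on slide 2. For IFIT1 (ILMN_1707695) it was 3.24 and 1.84, and for IFIT2 it was 2.94 and 1.11. BT549 arrays also differed in brightness, with a 75th percentile of intensity of 165.5 and 159.6 at 72 h, against 281.0 and 221.6 at 0 h. The other arrays lay between 134.2 and 283.1, and 38.7% to 46.4% of the probes were detected per array. Before any normalization, IFIT3 (ILMN_2239754) averaged an intensity of 594 at 72 h in BT549, against 265 at 0 h. Averages were also higher at 72 h for ILMN_1701789 (532 against 248), ILMN_1664543 (235 against 183), IFIT1 (ILMN_1707695, 1106 against 555) and IFIT2 (630 against 433). They were lower for IFIT5 (156 against 174) and ILMN_1699331 (118 against 132). The IFIT2 intensities overlapped, with 703 and 557 at 72 h, against 647 and 218 at 0 h. Median scaling in place of quantile normalization moved the median of all tested probes in BT549 by -0.42 at 72 h, and there the median IFIT change was 1.48, with 7 of 7 probes above 0 and 1 called, IFIT3 (ILMN_2239754). How far brightness takes part in the size of the change was not tested.

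Other genes of the interferon pathway were counted from 7 lists, each gene by its brightest tested probe. For BT549 at 72 h, all 14807 genes had a median change of -0.01, with 67 called higher and 59 lower. Of 9 type I and III ligands, 3 were tested and 1 was called, IFNB1, which encodes interferon beta. IFNB1 was found at 5.25 and 6.69 on the 72 h arrays and on 0 of 4 earlier BT549 arrays. The rise against 0 h was at least 2.07-fold (adjusted p = 0.018). Only the 2 arrays at 72 h took this probe past the filter of detection on at least 2 arrays. Its call is therefore not independent of the filter, although it was kept without the filter. The call was lost without replicate 1 or 2 of BT549 at 0 h, under median scaling and without background correction. The probe did not pass the filter without either 72 h array or at a detection p under 0.01. IFNB1 was detected on 0 of 18 arrays of the other lines.

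Of 6 interferon receptor genes 0 were called, with a median change of 0.13 in BT549 at 72 h. The brightest of them, IFNGR2 and IL10RB, changed by 0.16 and 0.03. Of 9 tested kinases and transcription factors 0 were called (2 more members are not analysed here), with a median of 0.17. IRF1 changed by 0.11 and the kinase TYK2 by 0.42.

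Genes of RNA sensing rose in part. Of 8 genes 4 were called higher, with a median of 0.70 over the 8. IFIH1, which encodes the sensor MDA5, read 7.88 and 8.31 at 72 h, against 6.65 and 5.69 at 0 h (change 1.92 ± 0.35, adjusted p = 0.0124). RIGI, a sensor of uncapped RNA, read 7.54 and 7.99 at 72 h, against 6.34 and 6.09 at 0 h (change 1.55 ± 0.25, adjusted p = 0.00338). The ubiquitin ligase TRIM25 changed by 0.93 (adjusted p = 0.0198), and EIF2AK2, the kinase PKR, by 0.82 (adjusted p = 0.0279). For IFIH1 and RIGI the arrays at 72 h lay above those at 0 h, a pattern that 19.4% of all probes showed. Of the 4 calls, 0 were left without replicate 2 of BT549 at 0 h, without replicate 2 at 72 h or under median scaling. RIGI and IFIH1 were the 2 left without replicate 1 at 0 h, under 75th percentile scaling or on the authors' values.

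Of 9 genes of DNA sensing 2 were called higher in BT549 at 72 h, with a median of 0.15. STING1, the adaptor downstream of the DNA sensor cGAS, read 7.53 and 8.48 at 72 h, against 6.97 and 6.41 at 0 h (change 1.31 ± 0.27, adjusted p = 0.0233). SAMHD1, a nucleotide hydrolase, read 5.22 and 5.42 at 72 h and was above background on 0 of 2 arrays at 0 h, a rise of at least 1.32-fold (adjusted p = 0.0153). The DNA sensor gene itself, CGAS, changed by 0.49 (adjusted p = 0.655). Neither DNA sensing call was left without replicate 2 of BT549 at 0 h, without replicate 2 at 72 h or under median scaling. STING1 was the 1 left without replicate 1 at 0 h or at 72 h, under 75th percentile scaling, at a detection p under 0.01, without background correction or on the authors' values. Among 6 regulators, ISG15, a ubiquitin-like modifier, and USP18, the protease that removes it and damps receptor signalling, were called. ISG15 read 11.84 and 11.98 at 72 h, against 10.09 and 8.98 at 0 h (change 2.37 ± 0.36, adjusted p = 0.00269), and USP18 changed by 2.01 ± 0.26 (adjusted p = 4.18e-04). USP18 was the 1 regulator left without replicate 2 at 0 h, without replicate 2 at 72 h or under median scaling.

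Other interferon-stimulated effectors formed the longest list, with 35 of 36 tested. In BT549 at 72 h 11 were called higher and 0 lower, 35 of 35 changes were above 0 (30 of 35 under median scaling), and the median was 1.05. OAS2, which makes the oligoadenylate that activates RNase L, read 9.89 and 9.85 at 72 h, against 7.83 and 5.21 at 0 h (change 3.35 ± 0.65, adjusted p = 0.016). MX1, a GTPase that traps viral ribonucleoproteins, read 12.19 and 11.85 at 72 h, against 10.004 and 7.38 at 0 h (change 3.33 ± 0.64, adjusted p = 0.0155). IFI44L changed by 3.08 ± 0.47 (adjusted p = 0.00285) and OAS1 by 2.43 ± 0.38 (adjusted p = 0.00319). Replicate 2 at 0 h was the low array for each of these genes, as for the IFIT probes. Without it 1 effector was called and the median was 0.72, without replicate 2 at 72 h 4 were called, without replicate 1 at 72 h 7 were called, and under median scaling 1 was called.

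The same list in the other lines had 0 called genes at 72 h, where few genes were called at all. Of all 14807 genes, 1 was called higher and 0 lower in MDA-MB-231, 10 and 2 in MDA-MB-157, and 2 and 3 in HCC38. The median change of the list was 0.34 in MDA-MB-231, with 32 of 35 above 0. It was -0.24 in MDA-MB-157, with 5 of 35 above 0, and -0.12 in HCC38, with 14 of 35 above 0. Leaving out single MDA-MB-231 arrays mattered: without replicate 2 at 0 h its median was 0.12 with 24 of 35 above 0, without replicate 1 at 72 h it was 0.21 with 28 above 0, and without replicate 1 at 0 h it was 0.50 with 4 genes called. Without 1 array the median ran from -0.36 to -0.18 in MDA-MB-157 (lowest without replicate 1 at 72 h) and from -0.24 (without replicate 1 at 0 h) to -0.003 (without replicate 2 at 0 h) in HCC38. The median over all genes was between -0.01 and 0.01 in these lines. Median scaling moved the counts above 0 to 34 in MDA-MB-231, 15 in MDA-MB-157 and 2 in HCC38. The IFIT medians were 0.59, -0.57 and -0.16 in the same lines.

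**Figure D4:**
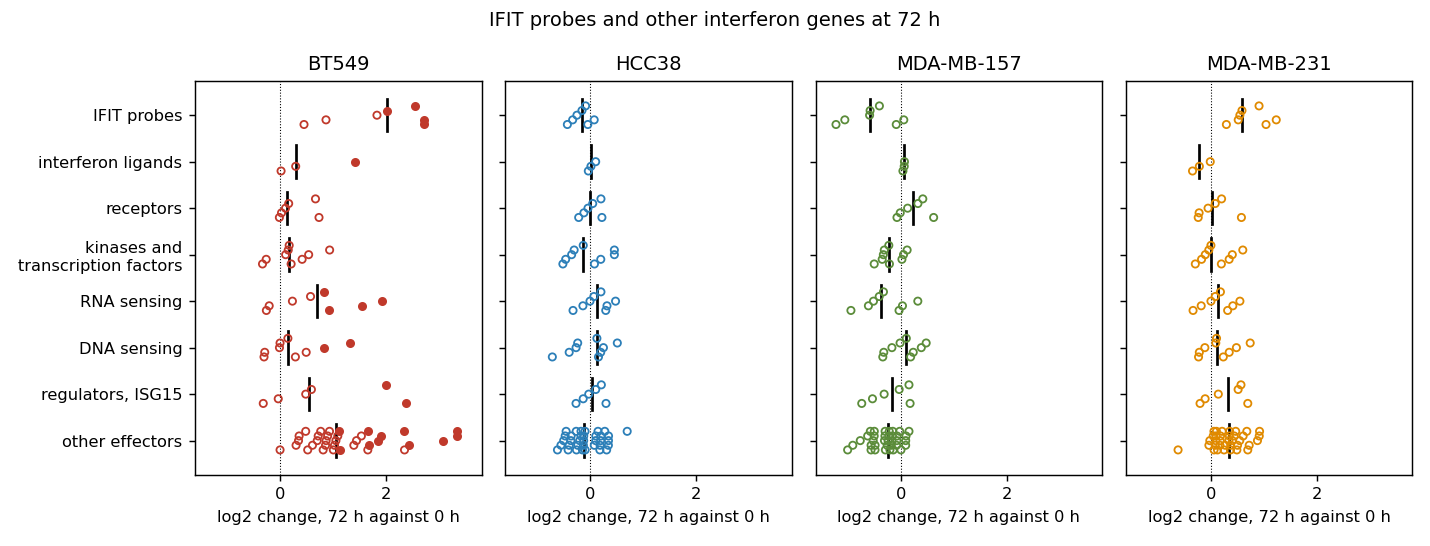
Change at 72 h against 0 h (x axis, log2) in each line for the 7 IFIT probes and for the tested genes of 7 interferon lists (rows), as points that are filled where called, with a black bar at each row's median. In BT549 the IFIT median is 2.02 and the effector median 1.05, and the receptor, kinase and transcription factor medians are 0.13 and 0.17.

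The genes most like each member were ranked by Pearson's r over the 12 group means, each a mean of 2 arrays from the same normalization, as a description. For IFIT1 they were SAMD9 (0.93), IFIT3 (0.90), IFIT2, TFAMP1 and PTPDC1. For IFIT2 they were NFE2L3 (0.96), IFIT3 (0.94), ARPC3, HIP1R and MT1E, and for IFIT3 they were TGOLN2 (0.96), GCC2 (0.96), IFIT2, MT1E and NFE2L3. IFIT5 stood apart, with NEDD8 (0.94), CHPF2 (0.94), LAP3, MROH1 and MT2A. Over the same 12 group means its r was 0.37 with IFIT1 (ILMN_1707695) and 0.78 with the dimmer IFIT3 probe ILMN_1664543. Over the 24 arrays its r with IFIT1 was 0.41.

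With each line's mean taken away, which leaves the changes over time, the nearest genes were ranked again. For IFIT1 they were IFI44 (0.98), HERC6 (0.97), IL5RA, SAMD9 and OASL. For IFIT3 they were HERC6 (0.98), OAS3 (0.98), PARVA, IFIT1 and ISG15. IFIT2 had KCNK7 (0.98), IFIH1 (0.96), MIR1275, MSC and USP18, and IFIT5 had GCC2 (0.98), IFIT3 (0.96), HERC6, ZNF329 and PARVA. The r of IFIT5 with IFIT1 was 0.92 on this measure.

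The neighbours of the IFIT genes on the chromosome were not called in BT549 at 72 h. The genes before IFIT2 changed by 0.64 (ACTA2, smooth muscle actin, adjusted p = 0.421), 0.24 (FAS, a death receptor) and 0.28 (CH25H, cholesterol hydroxylase). LIPA (lysosomal lipase), which overlaps the start of IFIT2, changed by 0.09. The genes after IFIT5 changed by 0.35 (SLC16A12, a transporter), -0.36 (PANK1, a pantothenate kinase) and -0.30 (KIF20B, a kinesin). The IFIT1B probe was detected on 0 of 24 arrays.

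Markers of the labelled cells were checked. ESR1, the oestrogen receptor, was detected on 0 of 24 arrays and PGR, the progesterone receptor, on 2, both of MDA-MB-157. ERBB2 was detected on every array, at 7.84 to 9.97. KRT8 was at 4.66 to 6.37 in BT549 and above 8 in the other lines. EPCAM was at 12.88 to 13.21 in HCC38 and at 4.38 to 6.50 in BT549. CDH1 was at 11.07 to 11.32 in HCC38 and at 4.81 to 6.39 in the other lines. KRT19 was at 11.58 to 13.32 in HCC38 and MDA-MB-231, and at 4.71 to 6.78 in BT549 and MDA-MB-157. KRT18 was at 4.50 to 5.14 in BT549 and at 6.47 to 7.77 in the other lines. Of the mesenchymal markers, VIM was at 12 to 14.51 and FN1 at 4.33 to 5.64 over the 4 lines. CDH2 was at 4.58 to 6.92 in MDA-MB-231 and at 9.31 to 12.67 in the other lines. Of the blood cell markers, PTPRC and CD3E were detected on 0 of 24 arrays and CD14 on 24, at 5.55 to 5.96 in BT549. LYZ was detected on 4 of 6 BT549 arrays, at 4.77 to 5.91 over the 6. The endothelial markers PECAM1 and VWF were detected on 0 of 6 BT549 arrays. In each other line VWF was detected on 0 of 6 arrays. PECAM1 was detected on 0 of 6 in HCC38, and on 3 of 6 in MDA-MB-157 and in MDA-MB-231. The part of these markers in the IFIT results was not tested.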

How the data were processed

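RNA of 4 lines at 3 times was hybridised, per the labels, as biotin-labelled cRNA to 24 Illumina bead arrays. Bead intensity per probe is, in the authors' main table, without normalization. A detection p-value follows each intensity column, per the file headers, and no source used here gives the software. A deposited table of log2 values matched the intensities only by value (47319 of 47322 probes), since identifiers did not correspond, and served as an alternative.

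Background was corrected by normexp in limma 3.58.1 (R 4.3.3), with negative controls inferred from the detection p-values and an offset of 16, followed by quantile normalization and log2. Of 47322 probes, 30112 had 1 symbol, 8 several and 17202 none. The 20466 probes with 1 symbol, and detected (p under 0.05) on 2 or more arrays (14807 genes), were fitted with 12 group means (12 residual and 7.31 prior degrees of freedom), adjusted by Benjamini-Hochberg. A gene not detected on any array of the dimmer group has only a bound: the brighter mean over the lowest detected signal of each dimmer array. Named were all IFIT probes, the 5 genes most like each member on 2 measures, up to 4 called members per list (or the 2 brightest), and the neighbouring genes. CGAS lies outside that rule and was named after its value was seen. Members and lists were chosen with earlier results of these data known. The script was tested on simulated data. Alternatives covered background, normalization, filters, blocks, weights, the second table and each array left out.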

Additional observations from a re-analysis of the deposited data

Results flagged for a closer look

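The change of IFIT3 RNA at 72 h of cisplatin differed between the 4 lines by limma's F test. F was 19.32 for ILMN_2239754 and 18.75 for ILMN_1701789, and 12 of 20466 probes passed the same test. Set against the mean change of the other lines, the BT549 change was larger by 2.57 for ILMN_2239754 and by 2.70 for ILMN_1701789. The BT549 arrays at 0 h differed by 1.08 and 1.22 on these probes, and the excess was not called without replicate 2. No explanation was tested.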

How the results depend on the processing

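The 2 arrays per group and the wide replicate gaps of IFIT RNA limit these counts, and dim probes were close to background. No called IFIT result changed sign under any alternative. Uncalled probes did: of 7 probes, the number above 0 at 72 h was 7 in MDA-MB-231 and 6 without replicate 1 at 72 h, 1 in HCC38 and 0 to 3 over the alternatives, and 1 in MDA-MB-157 and 0 to 2. Counts of called IFIT probes are summed over the lines, and they were 0 in the main analysis and under every alternative run for the changes at 24 h. The count for 72 h against 0 h was 4, with 1 under median scaling, 0 in fits of each line's 6 arrays alone, and 2 to 6 with single arrays left out. The count for 72 h against 24 h was 3, with 0 under median scaling or with 6 arrays alone, 1 under 75th percentile scaling or array weights, 5 with a replicate block within each line or across lines, and 0 to 4 with single arrays left out. The average at 72 h against 0 h called 1 probe. It called 2 with no background correction, an offset of 50, a detection p under 0.01, limma trend or a replicate block across lines, 3 with a replicate block within lines, 0 under median or 75th percentile scaling or without the line BT549 or MDA-MB-231, and 0 to 3 with single arrays left out.

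The F test at 0 h called 4 probes (3 to 5 with single arrays left out). The F test of the change at 72 h called 2, with 0 under median or 75th percentile scaling or without the filter, 1 with 1 probe per gene, 5 with the block within lines, 4 with the block across lines, and 0 to 5 with single arrays left out. Lines against the others at 0 h gave 9 calls, 5 under median scaling and 6 to 14 with single arrays left out. The change at 72 h in a line against the mean change of the other lines, counted over the 4 lines, gave 2 calls, both in BT549. It gave 0 under median scaling, 1 with 1 probe per gene, 8 with the block within lines (5 in BT549 and 3 in MDA-MB-157), 5 with the block across lines, 4 with limma trend, and 0 to 4 with single arrays left out. The average changes at 24 h and between 24 h and 72 h gave 0 throughout the arrays left out. With 1 probe per gene, 4 IFIT probes were tested in place of 7. More probes of the array were tested without the filter, and fits of each line alone used 6 arrays. No cause of the differences between these counts was tested.

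The IFIT3 rise in BT549 at 72 h (ILMN_2239754) was called with each of the 24 arrays left out (2.16 to 3.23, adjusted p up to 0.0139) and lost only with 6 arrays alone (2.86, adjusted p = 0.267). ILMN_1701789 was also lost under median scaling (2.26, adjusted p = 0.0548), and IFIT1 there was 1.90 (adjusted p = 0.136). Replicate numbers were not shown to pair the samples: deviations of same-numbered arrays correlated at 0.33 to 0.48 in BT549, and at -0.07 to 0.20 in the other lines. With the block within lines the F test of the change at 72 h also called IFIT1 (adjusted p = 0.0203), IFIT2 (0.00392) and IFIT3 ILMN_1664543 (0.00979), BT549 at 72 h against 0 h also called ILMN_1664543 (0.0029), and 72 h against 24 h also called IFIT2 (0.00663) and ILMN_1664543 (0.0159). The values within slides have no test.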
